A study of Mus musculus with 8 samples.

Results

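The mouse genome holds 540 autosomal protein-coding genes that span at least 300 kb, Utrn left aside, out of 20807 autosomal protein-coding genes in GENCODE. They were chosen by length and chromosome alone, and no H3K56ac value entered the choice. Each was then described by the H3K56ac peaks in its body, by the share of its body inside peaks (its covered share), and by that share in its first 100 kb and in the rest. To see where H3K56ac lies in muscle stem cells (MuSCs), the study profiled freshly isolated MuSCs of the C57BL/6 background by ChIP-seq. The paper calls the control MuSCs of its ChIP-seq wild type. Elsewhere it gives the controls of Sirt6mKO mice as carrying floxed Sirt6 alleles without the Cre. Sirt6mKO mice carried floxed Sirt6 alleles and the Pax7-ICN Cre, which the Pax7 promoter drives in Pax7-expressing cells from development on. Each genotype had 2 H3K56ac libraries and 2 input libraries, and the 8 libraries came from adult mice whose MuSCs were sorted by surface markers or a reporter. The values below come from a single list of merged peaks that names no genotype and no library. Therefore Sirt6mKO was not compared with Control, no spread between replicates can be given, and the list itself carries no read counts. The read numbers of the libraries were not used here.

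H3K56ac is the acetylation of lysine 56 in the globular core of histone H3, at the point where DNA enters the nucleosome. It is found on newly assembled nucleosomes and at the promoters and enhancers of active genes, and SIRT6 is a deacetylase that removes it. Very long genes owe their length to introns and often have several promoters. Many of them encode synaptic adhesion proteins, receptors and channels of neurons, while others encode transcription factors and signalling proteins used in many tissues, and several lie at common fragile sites.

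The promoters of genes at both ends of the range are shown first, because they carry a peak in one set and none in the other. The 300 bases run from 250 bp before to 50 bp after the annotated 5′ end, on the strand of the gene, in the GRCm38 assembly, and capitals mark each CG dinucleotide. Nfia (chr4:97772484-97772783, plus strand), Ror1 (chr4:100095541-100095840, plus strand) and Cux1 (chr5:136567441-136567740, minus strand) had the highest covered shares, and each had a peak at its 5′ end. Cntn5 (chr9:10904726-10905025), Kcnip4 (chr5:49524858-49525157) and Nrg3 (chr14:39473039-39473338), all on the minus strand, were the longest genes without a peak.
Nfia: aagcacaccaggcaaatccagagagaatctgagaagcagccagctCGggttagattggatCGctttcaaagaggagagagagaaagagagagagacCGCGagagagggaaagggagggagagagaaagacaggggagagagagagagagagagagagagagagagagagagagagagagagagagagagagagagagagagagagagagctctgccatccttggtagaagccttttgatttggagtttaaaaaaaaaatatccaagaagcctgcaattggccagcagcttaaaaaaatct
Ror1: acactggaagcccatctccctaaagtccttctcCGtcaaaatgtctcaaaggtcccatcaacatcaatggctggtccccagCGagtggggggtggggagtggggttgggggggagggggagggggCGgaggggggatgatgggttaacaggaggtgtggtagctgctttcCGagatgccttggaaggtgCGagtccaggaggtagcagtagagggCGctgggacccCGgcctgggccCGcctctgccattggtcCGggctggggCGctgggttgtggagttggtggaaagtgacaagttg
Cux1: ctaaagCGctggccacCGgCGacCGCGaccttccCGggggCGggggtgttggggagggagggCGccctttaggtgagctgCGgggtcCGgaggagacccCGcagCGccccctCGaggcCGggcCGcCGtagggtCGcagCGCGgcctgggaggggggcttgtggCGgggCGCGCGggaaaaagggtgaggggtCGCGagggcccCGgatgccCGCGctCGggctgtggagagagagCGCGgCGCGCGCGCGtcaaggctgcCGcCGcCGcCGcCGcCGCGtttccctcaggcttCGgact
Cntn5: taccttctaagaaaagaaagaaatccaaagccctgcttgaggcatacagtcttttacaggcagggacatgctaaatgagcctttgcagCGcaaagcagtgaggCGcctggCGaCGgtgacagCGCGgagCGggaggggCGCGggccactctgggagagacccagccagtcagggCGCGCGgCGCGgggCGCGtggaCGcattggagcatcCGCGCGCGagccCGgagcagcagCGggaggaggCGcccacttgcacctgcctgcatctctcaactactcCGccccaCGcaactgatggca
Kcnip4: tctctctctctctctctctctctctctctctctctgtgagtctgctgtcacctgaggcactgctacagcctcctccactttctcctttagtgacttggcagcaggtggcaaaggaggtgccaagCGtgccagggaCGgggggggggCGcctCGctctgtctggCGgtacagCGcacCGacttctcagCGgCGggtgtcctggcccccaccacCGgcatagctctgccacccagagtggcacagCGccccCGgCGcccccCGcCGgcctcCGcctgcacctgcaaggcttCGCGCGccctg
Nrg3: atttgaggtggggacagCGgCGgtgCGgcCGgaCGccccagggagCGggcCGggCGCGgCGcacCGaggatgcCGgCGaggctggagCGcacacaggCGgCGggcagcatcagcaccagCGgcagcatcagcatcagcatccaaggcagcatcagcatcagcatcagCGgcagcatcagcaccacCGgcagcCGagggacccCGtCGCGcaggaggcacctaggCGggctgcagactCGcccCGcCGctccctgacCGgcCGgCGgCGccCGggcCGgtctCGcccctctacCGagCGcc

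A promoter rich in CG was present in marked and in silent genes. The windows of Nfia, Ror1 and Cux1 held 4, 10 and 44 CG dinucleotides, and those of Cntn5, Kcnip4 and Nrg3 held 26, 19 and 36. Over all 540 very long genes the median was 17, compared with 12 over the 20807 autosomal coding genes. At least 10 were present in 374 of the very long genes (69.3%) and in 54.5% of all autosomal coding genes. The 73 genes without a peak had a median of 11, and the genes with peaks had medians of 17 to 20.

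Coverage of very long genes ranged from none to most of the gene body. No peak was found in 73 genes (13.5%), and 145 genes (26.9%) were covered to less than 1%. Coverage of 1% to under 10% was found in 196 genes (36.3%) and of 10% or more in 126 genes (23.3%). Of all autosomal coding genes, most of which are far shorter, 29.4% had no peak and 46.6% were covered to at least 10%. The median gene had 8 peaks and a covered share of 2.10%, with quartiles of 0.288% and 8.81%, and the maximum was 84.1%. Together the genes occupied 308.2 Mb, or 12.9% of the autosomes outside assembly gaps, and held 11680 of the 103492 autosomal peaks. Their covered share as a whole was 6.39%, whereas that of the autosomes was 7.59%. The marked bases were unevenly shared, since 49 of the 540 genes sufficed to hold 50% of them and 10 genes held 19.9%. This ranking also depends on gene length, and in 81 of the 540 genes another coding gene starts inside.

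**Figure D1:**
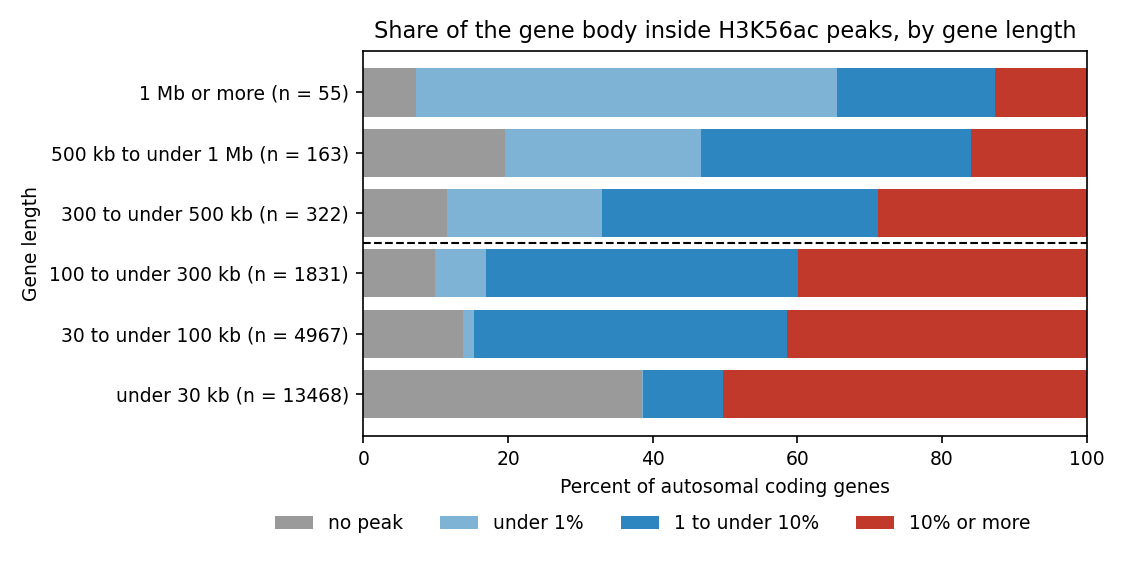
Percent of autosomal coding genes (x axis) in each class of covered share (colours), by gene length (y axis, number of genes in brackets; the dashed line marks 300 kb). The class under 1% grows from 0.208% of the genes under 30 kb to 58.2% of the genes of 1 Mb or more.

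The share of genes that had peaks but were covered to less than 1% rose with length. In shorter genes a single peak suffices to pass 1%, so the classes depend partly on length itself. Among 1831 genes of 100 to under 300 kb, 9.89% had no peak, 7.10% were covered to less than 1% and 40.0% to at least 10%, and the median covered share was 6.54%. Within the very long genes the median fell further, from 3.15% in 322 genes of 300 to under 500 kb to 1.22% in 163 genes of 500 kb to under 1 Mb and 0.431% in 55 genes of at least 1 Mb. A peak at the annotated 5′ end was sought within the same window in every gene. Such a peak was present in 64.1% of the very long genes. It was present in 77.7% of the genes of 100 to under 300 kb, in 60.7% of those under 30 kb and in 66.4% of all autosomal coding genes. The share thus did not fall steadily with length. All genes of each group were counted from a single peak list and are not replicates, so no interval is given. The covered share of the first 100 kb, the same length in both groups, also differed, with a median of 1.91% in the very long genes and 6.82% in those of 100 to under 300 kb. Both measures begin at the outermost annotated start, which itself sets the length of a gene. In 67 of the very long genes only a start further inside had a peak.

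Genes on either side of the length limit were of mixed coverage. Just inside it, Kcnq3 (300.3 kb), a neuronal potassium channel subunit, had no peak, Pam (300.5 kb), which amidates peptide hormones, was covered to 14.02%, and Nxph1 (300.6 kb), a neurexin ligand, to 1.45%. Just outside it, Jazf1 (299.8 kb) was covered to 6.15%, Akap13 (299.1 kb), an anchor for protein kinase A, to 40.5%, and Atp2b2 (298.8 kb), a plasma membrane calcium pump, had no peak.

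**Figure D2:**
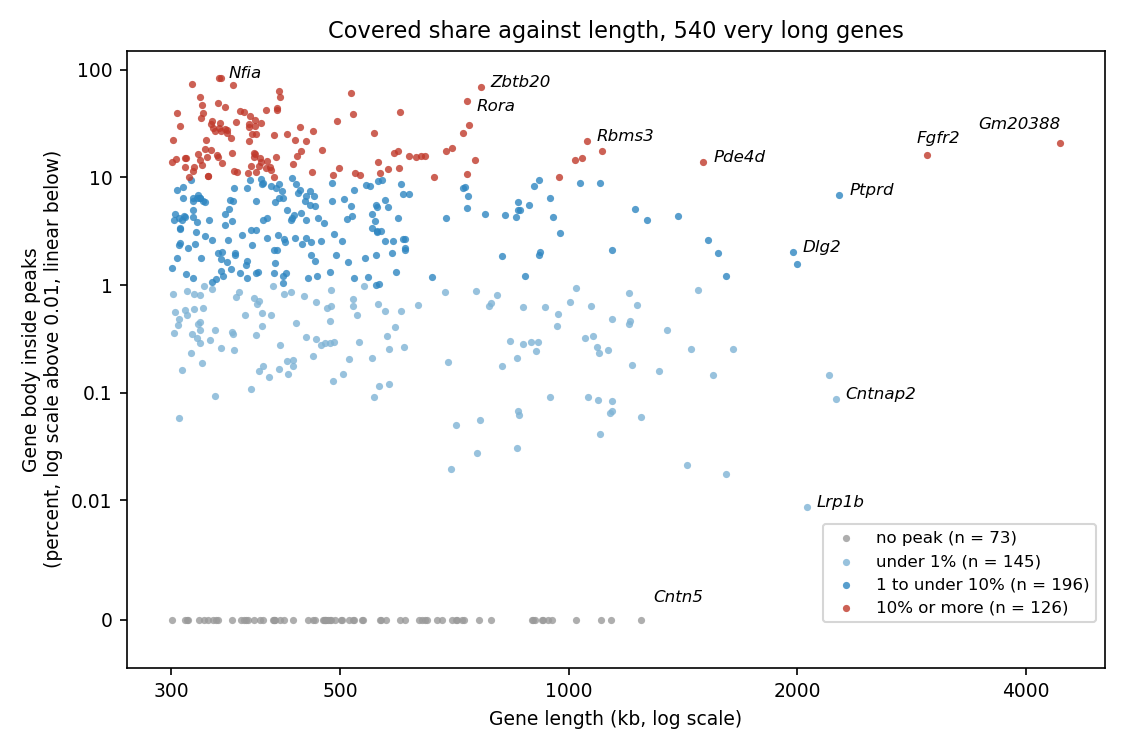
Covered share (y axis, percent, log scale above 0.01) against gene length (x axis, kb, log scale), with each point 1 of the 540 very long genes and colours for the 4 classes of covered share. The 73 genes without a peak lie on the bottom line, and above 1 Mb the points lie mostly below 1%.

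The most heavily marked very long genes were led by transcription factors. Nfia and Nfib encode nuclear factor I proteins. Nfia (chr4:97772734-98118874) carried 68 peaks over 346 kb and was covered to 84.1%. No stretch without a peak in Nfia exceeded 5.64 kb, and all of its 8 annotated transcription start sites (TSSs) had a peak within 3 kb. Nfib (chr4:82290173-82705750) was covered to 62.9% by 81 peaks. Cux1 (chr5:136248135-136567490), a homeodomain factor, was covered to 74.0%, and Zbtb20 (chr16:42875881-43642602), a zinc finger repressor of 767 kb, to 68.9%. Zbtb20 also held the widest single peak in any of the 540 genes, 52538 bp wide, which began 599 kb from its 5′ end. Rora (chr9:68653786-69388246), a nuclear receptor, had 219 peaks over 734 kb and a covered share of 51.4%.

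The other genes covered to more than 50% act outside transcription. Ror1 (chr4:100095791-100444765), a receptor for Wnt5a, was covered to 83.2% from 1 annotated TSS. The aminopeptidase O gene 2010111I01Rik was covered to 72.9%, and Rad51b, which acts in homologous recombination, to 61.4%. Pde7b, a cAMP phosphodiesterase, and Arhgap24, a GTPase-activating protein for Rac, were covered to 56.2% and 56.1%. In all, 10 genes were covered to at least 50% and 59 to at least 20%.

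Most peaks in very long genes were narrow, but the wide ones held much of the covered sequence. Counted gene by gene, 77.1% of peaks were narrower than 2 kb, yet these held 40.2% of the covered sequence, whereas the 5.70% that measured at least 5 kb held 29.5%. In the 126 genes covered to at least 10% the median number of peaks was 54.5, and the median widest peak measured 10146 bp. A peak of at least 10 kb was present in 71 of the 540 genes and one of at least 20 kb in 16. Of all peaks counted gene by gene, 60.4% lay in introns other than the first and 22.0% in first introns. Peaks within 3 kb of an own TSS made up 10.6%, those near a TSS of another coding gene 2.47%, and exonic peaks away from TSSs 4.46%. Peaks at own TSSs were wider, with a median of 1559 bp compared with 891 bp in first introns and 884 bp in other introns, although a wide interval also reaches a TSS more easily.

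At the other end, 73 genes showed no peak over their whole length. The longest were Cntn5 (1244 kb), Kcnip4 (1135 kb), Nrg3 (1104 kb), Cntn4 (1022 kb), Epha6 (952 kb), Sntg1 (938 kb), Cdh18 (925 kb), Grm7 (922 kb), Cntnap5a (903 kb) and Spag16 (898 kb). Cntn5 and Cntn4 are contactins and Cntnap5a is a contactin-associated protein, all adhesion proteins of neurons. Kcnip4 binds potassium channels, Nrg3 is a neuregulin, Epha6 an ephrin receptor, Grm7 a glutamate receptor and Cdh18 a cadherin. Sntg1 is a syntrophin expressed mainly in brain, and Spag16 is a sperm flagellar protein. The upstream 100 kb were also free of peaks in 60 of the 73 genes. In Kcnh8 and Robo2 a peak lay within 3 kb of a TSS but outside the gene body.

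Several of the longest genes held only 1 to 4 peaks. Lrp1b, a lipoprotein receptor relative of 2058 kb, had 1 peak of 195 bp, which lay 1686 kb from its 5′ end. Cntnap2, with 2245 kb the longest gene of the neurexin group, had 3 peaks, all beyond its first 1985 kb, and this was the longest bare stretch in the 540 genes. Nrxn3 (1612 kb) had 1 peak of 286 bp and Lsamp (2197 kb), a cell adhesion protein of neurons, had 4. Csmd1 (1643 kb) had 3 peaks, the farthest centred 140.88 kb from its 5′ end, and the 1502 kb beyond it were bare. Stretches of at least 500 kb without a peak occurred in 97 genes and of at least 1 Mb in 16.

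Some of the largest genes were nevertheless well covered. Of the 55 genes of at least 1 Mb, 7 were covered to at least 10%. Rbms3, an RNA-binding protein gene of 1057 kb, was covered to 21.6% by 165 peaks. Auts2 (1106 kb), a nuclear protein that associates with Polycomb complexes, reached 17.8%, and the cadherin gene Cdh13 (1041 kb) reached 15.0%. Zfhx3, a homeodomain factor of 1019 kb, and Pde4d, a cAMP phosphodiesterase of 1504 kb, reached 14.4% and 13.96%. The remaining 2, Gm20388 (4435 kb, 550 peaks, 20.7%) and Fgfr2 (2961 kb, 220 peaks, 16.1%), are gene models in which 72 and 29 other coding genes start. Their peaks therefore cannot be assigned to them alone. In 81 of the 540 genes at least 1 other coding gene starts, and in 8 at least 5 do.

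To compare the beginning of each gene with the remainder, the first 100 kb were set against the rest. The first 100 kb had the higher covered share in 270 genes and the rest in 197, and the 73 genes without a peak had none in either. Over all genes 8.58% of the first 100 kb and 5.97% of the rest lay inside peaks. Without the first 3 kb, however, the count turned, with 175 genes higher in the 5′ part and 256 higher in the rest. The median covered share of the 5′ part then fell from 1.91% to 0.706%, compared with a median of 1.65% in the rest. However, the rest is longer than the 5′ part in every gene, so the few peaks of a sparse gene more readily fall in it. The count and the medians therefore depend on the unequal lengths, and no preference for either part can be read from them. Over all genes together, the 5′ part without its first 3 kb was covered to 7.64% and the rest to 5.97%. The 5′ values, 8.58% and 7.64%, weight every gene equally, whereas the 5.97% weights genes by length. Genes of 1 Mb or more, covered to 4.06% as a whole, therefore weigh heavily in the rest. With genes weighted equally, mean covered shares of bins between 100 and 300 kb from the 5′ end ranged from 5.78% to 7.87%. The gap between 7.64% and 5.97% thus cannot be read as a preference for the 5′ part.

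**Figure D3:**
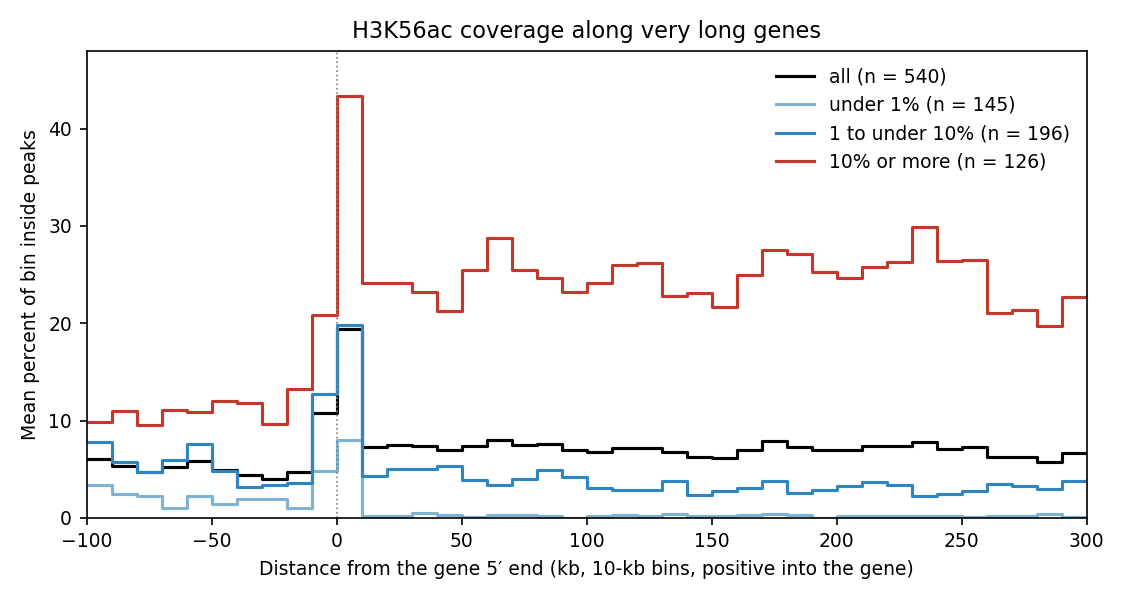
Mean covered share of 10-kb bins (y axis, percent) by distance from the gene 5′ end (x axis, kb, negative values upstream) for all 540 very long genes and for the classes with peaks. The mean over all genes peaks at 19.5% in the first 10 kb and lies between 5.78% and 8.005% in every later bin up to 300 kb.

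Past the first 10 kb, the mean over all genes changed little up to 300 kb. The first 10 kb were covered to 19.5% on average, and 64.8% of the genes had some coverage there. The next bin, from 10 to 20 kb, was covered to 7.24%, and the bin from 200 to 210 kb to 6.997%. In the 126 genes covered to at least 10%, the first 10 kb were covered to 43.3% and the later bins to 19.7% to 29.9%. In the 145 genes under 1%, the first 10 kb were covered to 7.95% and no later bin exceeded 0.528%. In the 196 genes of 1% to under 10%, the first 10 kb were covered to 19.9%, the bins between 10 and 50 kb to 4.31% to 5.35%, and the later bins to 2.21% to 4.87%. The 10 kb upstream of the 5′ end were covered to 10.8% over all genes. Among the genes covered to at least 10%, the first 100 kb were higher in 62 and the rest in 64.

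**Figure D4:**
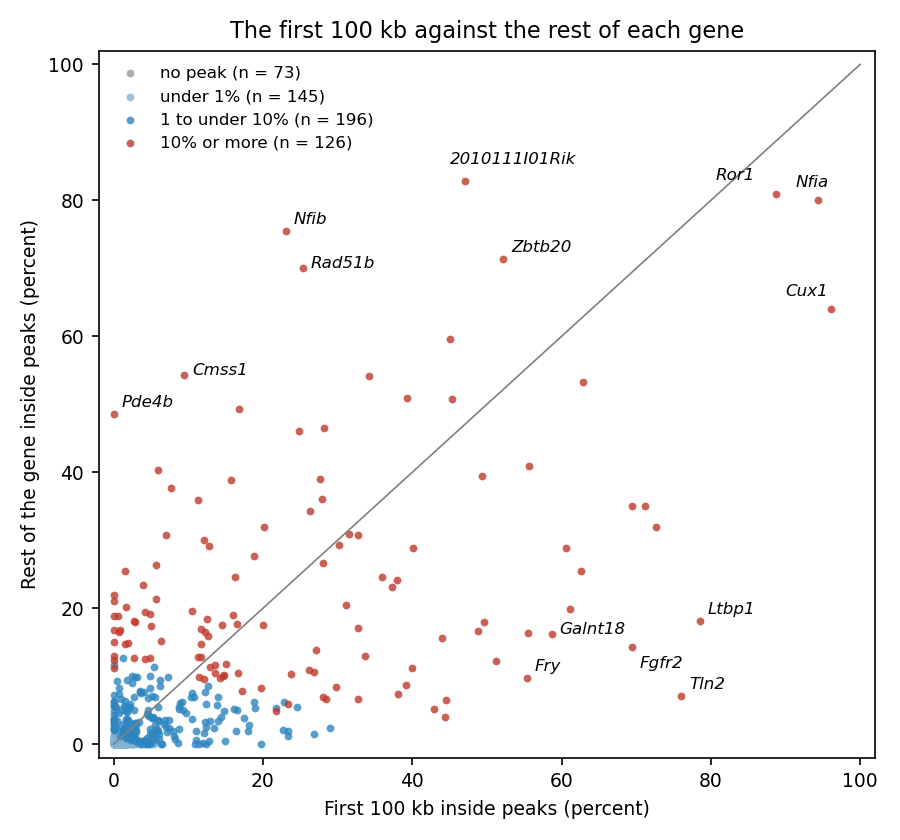
Percent of the first 100 kb inside peaks (x axis) against percent of the rest of the same gene (y axis), with each point 1 of the 540 very long genes, colours for the classes of covered share, and the line marking equal shares. Tln2, Ltbp1, Fgfr2, Fry and Galnt18 lie far below the line, and Nfib, Pde4b, Cmss1, Rad51b and 2010111I01Rik far above it.

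Some genes were marked mainly at their beginning. Tln2 (chr9:67217087-67559703), a talin that links integrins to actin, had 76.1% of its first 100 kb inside peaks and 7.10% of the rest. The 100 kb upstream of Tln2 were covered to 73.6%. Ltbp1, which binds latent TGFβ, had 78.6% and 18.2%. Fry, a scaffold of the NDR kinase pathway, had 55.3% and 9.71%, and Galnt18, a glycosyltransferase of the Golgi, had 58.7% and 16.2%. Fgfr2 had 69.4% and 14.2%, but its first 100 kb lie at the far end of the long gene model. In 59 genes the peaks were confined to the first 100 kb. The most covered of these 59 at the 5′ end were Btbd3 (19.7% of the first 100 kb), Sema5a (12.4%) and Gphn (11.5%), which were chosen for this mention after their values were seen.

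Others were marked mainly beyond the first 100 kb. Nfib had 23.1% of its first 100 kb and 75.5% of the rest inside peaks. In Rad51b the values were 25.3% and 69.99%, and in 2010111I01Rik they were 47.01% and 82.8%. Cmss1 had 9.49% and 54.3%, and its widest peak, 21460 bp, lay at the TSS of Filip1l, a coding gene nested in it. In 77 genes the first 100 kb had no peak while the rest did.

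Pde4b, a cAMP phosphodiesterase with several promoters, had the highest covered rest among the genes with a silent beginning. None of its first 100 kb (chr4:102087543 onward, plus strand) and 48.5% of the rest lay inside peaks. The first peak began 141.2 kb from the 5′ end. The first marked TSS, that of transcript Pde4b-206, lay 167 kb from the 5′ end under a peak of 8220 bp, and 9 of the 13 annotated TSSs had a peak within 3 kb. Ptprd, a receptor tyrosine phosphatase of 2271 kb, was bare over its first 1039.9 kb and carried 90 peaks thereafter, with its first marked TSS 1762 kb from the 5′ end. Gabbr2, a subunit of the GABA B receptor, had 18.8% of the rest and none of the first 100 kb inside peaks. In all, 413 of the 540 genes had a peak within 3 kb of any own TSS (76.5%), 346 of these at the 5′ end and 67 only at a TSS further inside. The share was 83.7% in genes of 100 to under 300 kb and 69.3% in all autosomal coding genes. The more TSSs a gene has, the more chances a count over any TSS gives it. Of 3976 TSS positions in the 540 genes, 2100 (52.8%) had a peak within 3 kb.

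The reverse combination was also found. Peaks without any at an own TSS occurred in 56 genes, of which 38 were covered to less than 1%. Among these 56, Alk, a receptor tyrosine kinase, had 23 peaks and a covered share of 5.14%, and Akap6, a kinase anchor of the muscle nuclear envelope, had 21 peaks and 7.502%. Both were chosen after their values were seen. In 48 genes all peaks were at own TSSs.

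The genes were next grouped by function with 17 lists, which together held 253 of the 540 genes. The lists share some genes. No list was tested, and the lists were written with earlier results of these data known. Each is given beside the shares over all 540 genes. Of these, 13.5% had no peak, 26.9% were covered to less than 1% and 23.3% to at least 10%. A peak at an own TSS was present in 76.5%. At a share of 13.5%, a short list would hold few genes without a peak in any case.

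**Figure D5:**
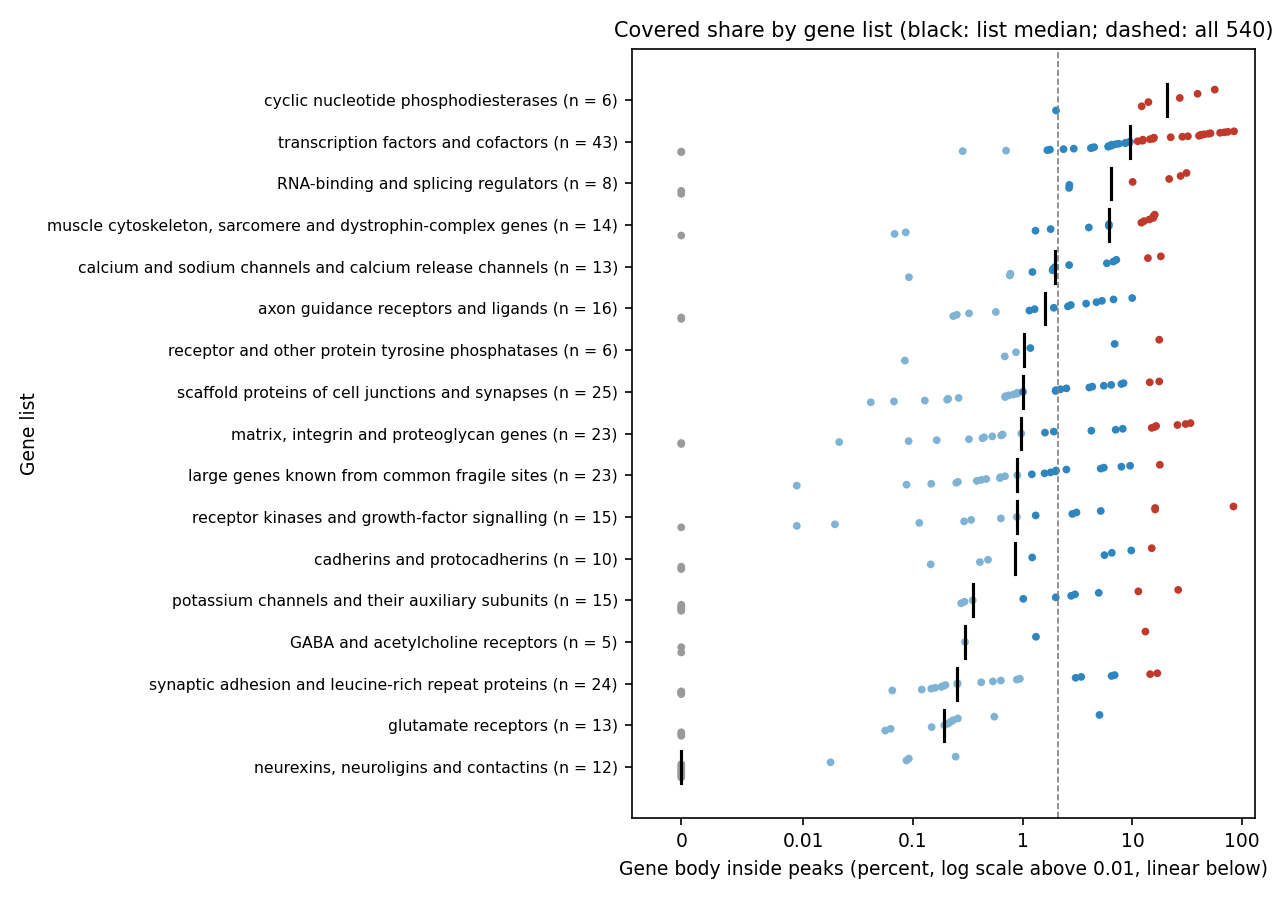
Covered share (x axis, percent, log scale above 0.01) of the very long genes of each of 17 lists (y axis, number of genes in brackets), with each point 1 gene coloured by its class, a black bar at the list median and a dashed line at the median of all 540 genes, 2.10%. The medians range from 0 for neurexins, neuroligins and contactins to 20.5% for cyclic nucleotide phosphodiesterases.

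Most genes of neuronal contacts and receptors were covered to less than 1% or had no peak. Of 12 neurexin, neuroligin and contactin genes, 8 had no peak and 4 were covered to less than 1%. The highest was Nlgn1, a neuroligin, with 1 peak and 0.245%. Of 13 glutamate receptor genes, 3 had no peak and 9 were covered to less than 1%. The exception was Grik4, a kainate receptor subunit, which had a peak at its 5′ end, 18 peaks in all and 5.01%. Of 24 synaptic adhesion and leucine-rich repeat genes, 4 had no peak and 14 were covered to less than 1%, but Clstn2, a calsyntenin, reached 16.8%. Of 5 GABA and acetylcholine receptor genes, 2 had no peak, the longer being Gabrg3, and Gabbr2 reached 13.1%.

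Ion channel genes ranged widely in coverage. Of 15 genes of potassium channels and their subunits, 5 had no peak, while Kcnma1, the large-conductance calcium-activated potassium channel, was covered to 26.1% by 114 peaks. None of the 13 calcium and sodium channel and calcium release channel genes was without a peak. All 13 had one at an own TSS, compared with 76.5% of all 540 genes. Itpr1, the type 1 inositol trisphosphate receptor, was covered to 18.1%, whereas Ryr2, the cardiac ryanodine receptor, had 1 peak and 0.0919%. The median covered share was 0.350% for the potassium channel list and 1.98% for the calcium and sodium channel list, and 2 genes of each list were covered to at least 10%.

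Regulators of transcription were mostly marked. Of 43 genes for transcription factors and their cofactors, 21 were covered to at least 10%, 18 to between 1% and 10%, 2 to less than 1%, and 2 had no peak. Their median covered share was 9.47%, and 40 of the 43 had a peak at an own TSS. Besides the factors named above, Tcf4, a bHLH partner of the myogenic factors, reached 49.2%, with a peak near 56 of its 58 annotated TSSs. Arid1b, a subunit of the BAF remodelling complex, reached 45.1%, and Bnc2, Creb5, Foxn3 and Bach2 reached 41.97%, 41.9%, 40.4% and 31.99%. Rere, Zfp536 and Tshz2 reached 28.5%, 22.3% and 15.7%. Maml2, a coactivator of Notch, and Nr3c2, the mineralocorticoid receptor, reached 15.4% and 15.3%. The 2 without a peak were Zfp804b and St18, both zinc finger genes.

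Cyclic nucleotide phosphodiesterases had the highest median, 20.5%. Of 6 genes, 5 were covered to at least 10%, namely Pde7b, Pde4b, Pde10a (26.98%), Pde4d and Pde1c (12.1%), and the exception was Pde11a with 2.01%. All 6 had a peak at an own TSS. In 4 of them, Pde4b, Pde4d, Pde1c and Pde11a, the rest was covered more than the first 100 kb. Of 8 RNA-binding genes, 4 were covered to at least 10%, led by Msi2 with 31.1%, and 2 had no peak, Adarb2 and Khdrbs2, which are expressed mainly in brain.

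Muscle genes were unevenly marked. Of 14 genes of the muscle cytoskeleton, the sarcomere and the dystrophin complex, 6 were covered to at least 10%, 5 to between 1% and 10%, 2 to less than 1% and 1, Sntg1, had no peak. Lama2, the laminin chain of the muscle basement membrane whose loss causes congenital muscular dystrophy, was covered to 15.9% by 69 peaks, with 27.2% in its first 100 kb. Macf1, a spectraplakin that links actin and microtubules, reached 15.5%, Ank3, which encodes ankyrin-G, 15.5%, and Dst, another spectraplakin, 14.3%. In Dst the 5′ end was unmarked, and the first marked TSS lay 97.7 kb inside the gene. The sarcoglycan genes Sgcd (1093 kb) and Sgcz (1139 kb) each had 1 peak and covered shares of 0.0859% and 0.0679%. Trdn, which encodes triadin of the calcium release complex, was covered to 4.00%.

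Matrix and receptor genes spanned the whole range. Of 23 matrix, integrin and proteoglycan genes, 6 were covered to at least 10%, 5 to between 1% and 10%, 10 to less than 1%, and 2 had no peak. Ltbp1 was the highest of them with 33.8%, and Reln, the longer without a peak, was silent over 460.2 kb. Of 15 genes of receptor kinases and growth-factor signalling, Ror1 was the highest, while 7 were covered to less than 1%, among them Erbb4, Ntrk2 and Ntrk3. Of 16 axon guidance genes, none reached 10%, and Ephb1, an ephrin receptor, came nearest with 9.94%. Of 6 protein tyrosine phosphatase genes, none was without a peak, and Ptprg reached 17.5%. Of 10 cadherin genes, Cdh13 was the highest and Cdh18 the longest without a peak.

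Most genes known from common fragile sites had a peak at an own TSS, and few were widely covered. A peak at an own TSS was present in 21 of 23 such genes (91.3%), compared with 76.5% of all 540. Of the 23, 12 were covered to less than 1%, as were 26.9% of all 540, and only Auts2 exceeded 10%. Their median was 2.98% in the first 100 kb and 0.490% in the rest, compared with 1.91% and 1.65% over all 540. Because the parts are of unequal length, no preference for the 5′ part can be read from these medians. Macrod2 (1998 kb) was covered to 1.58% and Dlg2 (1973 kb), a synaptic scaffold, to 2.01%. Fhit, the gene at the most studied of these sites, had 8.2% of its first 100 kb and 0.749% of the rest inside peaks. The 25 scaffold genes of junctions and synapses all had a peak and a median of 1.01%, and the highest, Syn3 with 17.5%, contains the start of Timp3, where its widest peak of 13734 bp lay. Genes in no list (287) had a median of 2.59%, and 13.9% of them had no peak.

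Sequence composition moved with coverage. The median GC content was 38.2% in genes without a peak, 39.6% in those covered to less than 1%, 41.4% in those of 1% to under 10% and 43.5% in those of at least 10%. The share of soft-masked repeats ran the other way, with medians of 33.3%, 29.5%, 24.9% and 22.9%. Across the 540 genes the covered share had a Spearman correlation of 0.53 with GC content (Pearson r = 0.33), -0.45 with repeats (r = -0.31) and -0.24 with length (r = -0.13). These are descriptions across genes that share one peak list, without a p-value. Only reads with a single alignment were used, and the part that repeats or base composition had in these differences was not tested.

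Neighbouring sequence was marked together. The covered share of a gene had a Spearman correlation of 0.61 with that of the 100 kb upstream of it (r = 0.41), and the first 100 kb had one of 0.64 with the rest (r = 0.65, n = 540 genes in each case). Of the 126 genes covered to at least 10%, 107 were covered more than their own upstream 100 kb. In 8 of the 126, such as Pde4b, that stretch had no peak. These genes were picked by the coverage of their bodies and not of the upstream stretches, whose median was 8.33%. A majority of this kind is therefore largely fixed by that choice.

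Marker genes of several cell types, of all lengths, were described as well. All 10 MuSC markers, including Pax7, Myf5 and Calcr, had a peak at a TSS, and their median covered share was 58.9%. A peak at a TSS was present in 1 of 7 haematopoietic markers, and Ptprc, which encodes CD45, had no peak. It was present in 5 of 7 endothelial, 4 of 5 fibro-adipogenic, 3 of 5 Schwann cell, 3 of 6 neuronal and all 7 myofibre markers. Of all autosomal coding genes, 69.3% had a peak within 3 kb of an own TSS, so these counts separate few of the cell types. The median covered share was 17.2% for myofibre, 16.5% for endothelial, 11.7% for Schwann cell and 11.1% for fibro-adipogenic markers. It was 2.00% for neuronal and 0% for haematopoietic markers, and 8.45% over all autosomal coding genes. The marker sets were not matched for gene length, on which covered share depends. The MuSC markers Myf5 and Spry1 and the endothelial marker Cldn5 were each covered to 100% by 1 peak. Among the neuronal markers, Syt1 (0.205%) and Rbfox3 (2.66%) are themselves very long genes. The part that other cell types had in the coverage of very long genes was not tested.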

How the data were processed

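ChIP-seq of H3K56ac and input was performed on MuSCs of Control and Sirt6mKO mice. Per the study's methods, the authors used Trim Galore on the reads, bowtie on mm10 with single alignments kept, Picard to remove duplicates, MACS2 to call peaks, and GenomicRanges to merge overlapping peaks after blacklisted regions were removed. The deposited list gives 105600 merged intervals, and its deposited score is 0 in every row. Which libraries entered the merge is not stated, so intervals of the genotypes cannot be told apart, and merging widens and fuses peaks. The paper reports far fewer H3K56ac peaks for wild-type MuSCs than this list holds, and a global increase in Sirt6mKO MuSCs. Its reporting summary also gives MuSC peak counts, all labelled Sirt6mKO, the largest of which exceeds the size of this list. These numbers need not rest on the same thresholds, so they are not directly comparable. The covered shares given here therefore need not be those of Control MuSCs. Sirt6mKO was not tested against Control, since the list has no counts per library.

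Genes and TSSs were taken from GENCODE vM21, and sequence, gaps and soft-masked repeats from GRCm38, whose coordinates are those of mm10. Covered share is the percent of bases inside intervals, and a peak counted in a gene from 1 bp of overlap. In 6 genes more than 1% of the bases are assembly gap (at most 29.8%), and 17 genes overlap another of the 540. Functions were tested on simulated intervals (Python 3.11.15, pandas 2.3.3, numpy 2.4.6, scipy 1.17.1).

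The genes and lists were chosen with earlier results of these data known. Named genes are the 10 most covered, the 10 longest, the 10 longest without a peak, the 5 with the most covered rest, the 5 with the largest difference of first 100 kb and rest in each direction, the 3 on either side of the length limit, the highest and the longest unmarked of each list, and up to 20 transcription factor and muscle genes covered to at least 10%. Others named were chosen after their values were seen. Auts2, placed in the muscle list by mistake, was taken out after the values were seen, and 1 gene list is not reported here.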

Additional observations from a re-analysis of the deposited data

How the results depend on the processing

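No paired analysis was possible because the list carries no column for a library, so that no replicate could be left out or paired. All 7 results (the numbers of genes without a peak, covered to at least 10%, with more coverage in the first 100 kb and with a peak at an own TSS, and the 3 median covered shares) were recomputed under 14 alternatives in all, not all of which apply to each result. Of 59 values, 48 stayed within 1.5 times a count or within the 95% order-statistic interval of a median. This included intervals of at least 500 bp, intervals joined over less than 1 kb, peaks lying by at least 50% inside the gene, the longest coding transcript in place of the gene (536 genes), and peaks at starts of other coding genes left out. In genes of at least 500 kb (218 genes), 36 had no peak, 33 were covered to at least 10%, 154 had a peak at an own TSS, and the median covered share was 0.889%. A first part of 50 kb had a median of 3.22%. Without its first 3 kb, the first 100 kb had a median of 0.706% and exceeded the rest in 175 genes, and without its first 10 kb, an alternative added after seeing the data, 0.553% and 161 genes. At limits of 5% and 20% in place of 10%, 195 and 59 genes passed. Leaving out the 81 genes with another coding gene starting inside, also added after seeing the data, moved no result beyond these bounds, with 69 of 459 genes without a peak. The list carries no counts, so a gene without a peak may hold acetylation below detection, and intervals cannot be ranked by strength.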

Other observations

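Overlapping gene models repeat the same sequence among the 540 genes. Gm42416, Gm37013 and Gm37388 span the same protocadherin cluster of 857 to 887 kb, in which at least 52 other coding genes start, and were covered to 5.57%, 4.93% and 4.97%. The read-through model Iqschfp (734 kb, 10.7%) overlaps Schip1 (562 kb, 13.9%), and Gm20388 contains Gse1. The predicted gene Gm42906 (365 kb) was covered to 32.5% with no peak at an own TSS. In Astn2, Prkg1 and Immp2l, 2 of 5, 2 of 6 and 2 of 5 peaks lay at the TSS of a nested coding gene, Trim32, Cstf2t and Lrrn3, and the covered shares were 0.941%, 0.835% and 0.628%.

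Some genes outside the rule for named genes also carried broad marks. Tnik, a kinase of the Wnt pathway, had a peak of 36159 bp and a covered share of 43.8%, Nedd4l, a ubiquitin ligase, a peak of 27016 bp and 39.4%, and Lpp, a LIM protein of focal adhesions, a peak of 21850 bp and 40.8%. Nav2 (701 kb) and Frmd4a (596 kb) had no peak in the first 100 kb and 21.9% and 21.1% of the rest covered, with the first marked TSS 337 kb and 135 kb from the 5′ end. These genes were chosen after their values were seen.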
